A study of Mus musculus with 50 samples.

Results

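The 9 genes described here encode receptors, peptides and signaling proteins of striatal and dopamine-responsive neurons: *Drd1*, *Drd2*, *Drd4*, *Adora2a*, *Penk*, *Tac1*, *Ppp1r1b*, *Rgs9* and *Pde10a*. They were chosen by symbol, with the gene identifiers of the count tables mapped by the GENCODE vM21 annotation, and all 9 were found among the 55487 genes counted. RNA of mouse frontal cortex was sequenced in 50 libraries, to follow the effect of a heterozygous loss of *Setd1a*, a histone methyltransferase gene, through development. At each of 5 ages, embryonic days 14 and 18 (E14, E18) and postnatal days 7, 35 and 70 (P7, P35, P70), there were 5 wild-type and 5 *Setd1a*+/- libraries. These ages are those of the labels, and the study's methods put both embryonic ages slightly later. The labels give C57BL/6NTac as the strain of every library. The targeted allele was *Setd1a* tm1d, on a background that mixed C57BL/6NTac with C57BL/6J, and the animals were described as males. Embryonic dissections took the frontal part of the brain, while postnatal dissections took frontal cortex. The total count of a library lay between 35507165 and 43907318 (median 38626998).

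Most neurons of the striatum are inhibitory projection neurons of a pair of types. Direct pathway neurons carry the dopamine receptor *Drd1* and the tachykinin precursor *Tac1*, indirect pathway neurons carry the dopamine receptor *Drd2*, the adenosine receptor *Adora2a* and the enkephalin precursor *Penk*, and both hold *Ppp1r1b*, *Rgs9* and *Pde10a*, whose products act on signaling through cyclic AMP and G proteins. The striatum lies beneath the frontal cortex, whose own neurons also hold several of these RNAs at lower levels, and *Drd4* is known more from the cortex than from the striatum.

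Some libraries stood apart or went against the description of the animals. The library labelled E14 wild-type replicate 5 had 60159 counts of *Xist*, the RNA of the inactive X chromosome, and 0 counts of 4 Y-linked genes, and E18 wild-type replicate 2 had 55644 and 11. The other 48 libraries had the male pattern. P7 wild-type replicate 2 differed most from its group over all tested genes, with an SD of 0.55 for its log2 deviations, where the other P7 libraries lay between 0.217 and 0.272. Its 6 markers of cholinergic and septal neurons summed to 734 on the counts-per-million scale (CPM, relative to the library's total count), against a P7 median of 75.8, and its 5 choroid plexus markers to 642 against 5.25. Its 11 ganglionic eminence markers, by contrast, summed to 106 CPM against 286, and its 8 cortical glutamatergic markers to 921 against 1517. E14 *Setd1a*+/- replicate 2 (0.483), E18 wild-type replicate 5 (0.426) and E14 wild-type replicate 5 (0.423) followed by the same SD.

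All 8 cortical glutamatergic markers were counted in every library, with summed levels between 921 and 2459 CPM, so the labelled tissue held its defining RNAs throughout. *Setd1a* itself was slightly higher in the heterozygous libraries across ages (log2 fold change 0.10, SE 0.025, edgeR adjusted p = 0.006747): at E14 it was at 124 ± 5.88 CPM in wild type and 137 ± 7.5 in *Setd1a*+/- (SD, n = 5 each), and at P70 at 77.8 ± 4.43 and 76.5 ± 7.56. Counts over the whole gene include bases outside the deleted part, so they check no genotype label.

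RefSeq promoter sequences (GRCm38.p6) matched 6 of the 9 genes, in 8 windows that run from 250 bases before to 50 after a transcription start. The windows of 4 genes are shown because 3 of them encode dopamine receptors, of which *Drd4* did not vary with the others, and *Tac1* alone held the letters TGACG, with which the cyclic AMP response element begins. Those of *Adora2a*, *Ppp1r1b* and *Penk* were not used here. The windows shown are *Drd1* (chr13:54055609-54055908, minus strand), *Drd2* (chr9:49340153-49340452, plus strand, which lies upstream of the GENCODE gene start), *Drd4* (chr7:141291768-141292067, plus strand) and *Tac1* (chr6:7554811-7555110, plus strand). Capitals mark matches, on either strand, to the GC box GGGCGG, the CCAAT box, the TATA box TATAAA and TGACG. Some matches overlap.
Drd1: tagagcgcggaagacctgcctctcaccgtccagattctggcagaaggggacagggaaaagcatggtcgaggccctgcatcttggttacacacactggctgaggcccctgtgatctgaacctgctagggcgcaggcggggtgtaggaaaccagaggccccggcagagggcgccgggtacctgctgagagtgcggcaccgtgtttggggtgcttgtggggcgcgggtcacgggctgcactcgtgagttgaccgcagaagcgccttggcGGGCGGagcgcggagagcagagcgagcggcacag
Drd2: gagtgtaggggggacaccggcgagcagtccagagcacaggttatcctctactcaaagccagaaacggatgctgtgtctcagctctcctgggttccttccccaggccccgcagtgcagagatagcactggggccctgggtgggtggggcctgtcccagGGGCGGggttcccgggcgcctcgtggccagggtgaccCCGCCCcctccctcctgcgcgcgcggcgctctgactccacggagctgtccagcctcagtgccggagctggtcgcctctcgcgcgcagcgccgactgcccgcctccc
Drd4: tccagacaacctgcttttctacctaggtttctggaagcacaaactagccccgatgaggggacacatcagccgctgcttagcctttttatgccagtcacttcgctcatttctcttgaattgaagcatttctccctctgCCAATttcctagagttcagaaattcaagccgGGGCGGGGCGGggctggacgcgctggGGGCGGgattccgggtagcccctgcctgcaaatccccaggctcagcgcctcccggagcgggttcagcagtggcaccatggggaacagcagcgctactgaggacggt
Tac1: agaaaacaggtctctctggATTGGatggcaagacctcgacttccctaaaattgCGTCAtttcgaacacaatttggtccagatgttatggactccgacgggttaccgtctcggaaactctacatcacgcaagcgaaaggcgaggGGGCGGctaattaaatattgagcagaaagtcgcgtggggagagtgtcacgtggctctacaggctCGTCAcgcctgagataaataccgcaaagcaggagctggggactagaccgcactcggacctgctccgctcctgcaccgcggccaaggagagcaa
The GC box was found in 8 of 8 windows and in 35.7% of 32851 mouse promoters of this length. CCAAT, held by 37.4% of promoters, was found for *Drd4*, *Rgs9*, *Tac1* and in 1 of 2 windows of *Pde10a*, and TATAAA, held by 13.6%, for *Rgs9* only. TGACG was found at 2 places in the *Tac1* window and in no other member window, against 20.8% of promoters, and the full response element TGACGTCA in none, against 1.79%. The windows shown of *Drd1*, *Drd2*, *Drd4* and *Tac1* held 23, 23, 15 and 22 CG dinucleotides, where the median promoter held 7. A second window of *Drd1*, not shown, held 6, and the windows of *Pde10a* held 23 and 5. Such matches describe letters only, and nothing about the binding of a factor was measured.

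The dopamine receptor gene *Drd1* (ENSMUSG00000021478, chr13:54051183-54055705, minus strand, GRCm38), which couples to stimulation of cyclic AMP, was low before birth and at P7. At E14, *Drd1* was at 5.91, 9.72, 8.47, 6.16 and 4.99 CPM in the wild-type libraries and at 6.09, 9.74, 7.06, 5.54 and 6.94 in *Setd1a*+/-. By E18, it was at 14.3, 13.5, 16.6, 11.8 and 15.4 CPM in wild type and 15.9, 14, 12.6, 22.5 and 13.9 in *Setd1a*+/-. Each E18 library exceeded each E14 library, and the genotypes overlapped at both ages. At P7, *Drd1* was at 9.76, 5.51, 12.8, 20.3 and 11.1 CPM in wild type and 24.9, 18.1, 13.1, 10.3 and 10.8 in *Setd1a*+/-. At P35, *Drd1* was at 34.6, 43.2, 27.4, 31.7 and 37.7 CPM in wild type and 25, 53.9, 32.8, 51 and 42.9 in *Setd1a*+/-. The highest P7 library (*Setd1a*+/- replicate 1) was still just under the lowest P35 library (*Setd1a*+/- replicate 1). At P70, *Drd1* was at 45.2, 50.6, 12.2, 44.1 and 37.3 CPM in wild type and 24.7, 39.6, 60.5, 25.7 and 48.7 in *Setd1a*+/-. Wild-type replicate 3 was the lowest P70 library, below several P7 libraries, and the genotypes overlapped.

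*Drd2* (ENSMUSG00000032259, chr9:49340627-49408177, plus strand) encodes a receptor that couples to inhibition of cyclic AMP. At E14, *Drd2* was at 6.22, 7.79, 4.82, 3.92 and 2.21 CPM in wild type and 3.52, 3.58, 4.43, 3.29 and 2.71 in *Setd1a*+/-. Its E18 levels were 6.99, 6.82, 10.3, 8.01 and 14 CPM in wild type and 9.69, 11.4, 10.7, 23.7 and 3.23 in *Setd1a*+/-. The highest and the lowest E18 library were both *Setd1a*+/-, replicates 4 and 5. At P7, *Drd2* was at 1.82, 4.85, 3.04, 7.64 and 1.9 CPM in wild type and 11.5, 6.97, 2.89, 1.81 and 3 in *Setd1a*+/-. At P35, *Drd2* was at 22.2, 32.9, 18.2, 18.8 and 19.9 CPM in wild type and 9.91, 32.7, 16.6, 33.4 and 28.2 in *Setd1a*+/-. Only P7 *Setd1a*+/- replicate 1 reached into the P35 range, above P35 *Setd1a*+/- replicate 1. At P70, *Drd2* was at 34.2, 40.7, 6.08, 29.5 and 22.7 CPM in wild type and 13.2, 26.5, 47.3, 12.5 and 29.6 in *Setd1a*+/-, so that wild-type replicate 3 was again the lowest and *Setd1a*+/- replicate 3 the highest.

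*Drd4* (ENSMUSG00000025496, chr7:141292006-141296464, plus strand), whose product also couples to inhibition of cyclic AMP, was near the limit of the depth, at 0.0267 to 1.27 CPM. Its counts at E14 were 23, 22, 32, 24 and 38 in wild type and 31, 16, 27, 32 and 18 in *Setd1a*+/-. At E18, *Drd4* had 37, 42, 25, 20 and 38 counts in wild type and 35, 49, 16, 33 and 27 in *Setd1a*+/-. At P7, *Drd4* had 12, 19, 6, 13 and 5 counts in wild type and 6, 1, 4, 19 and 8 in *Setd1a*+/-. P7 thus held most of the lowest libraries. At P35, *Drd4* had 23, 12, 14, 19 and 15 counts in wild type and 20, 16, 31, 7 and 11 in *Setd1a*+/-. At P70, *Drd4* had 4, 15, 10, 15 and 25 counts in wild type and 17, 2, 12, 16 and 16 in *Setd1a*+/-. Both genotypes overlapped at each age, and single libraries of a few counts cannot be ranked.

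*Adora2a* (ENSMUSG00000020178, chr10:75316877-75334784, plus strand) encodes the adenosine receptor that stimulates cyclic AMP in indirect pathway neurons. At E14, *Adora2a* was at 12, 16.8, 13, 11.3 and 9.63 CPM in wild type and 10, 21.6, 11.6, 13.3 and 10.1 in *Setd1a*+/-. Its E18 levels were 20.7, 16.4, 25.7, 25.4 and 27.2 CPM in wild type and 21.2, 22, 20.9, 43.5 and 11.7 in *Setd1a*+/-. E18 *Setd1a*+/- replicates 4 and 5 again lay at the ends of the range. At P7, *Adora2a* was at 8.15, 6.28, 8.13, 18.7 and 7.89 CPM in wild type and 31.6, 18.2, 7.62, 7.43 and 9.42 in *Setd1a*+/-. At P35, *Adora2a* was at 40.6, 64.5, 35.6, 32.4 and 44.9 CPM in wild type and 21.5, 72.6, 36.4, 76.6 and 61.5 in *Setd1a*+/-. P7 wild-type replicate 4 and *Setd1a*+/- replicates 1 and 2 were well above the other P7 libraries, while P35 *Setd1a*+/- replicate 1 was the lowest of its age. At P70, *Adora2a* was at 60.5, 60.5, 8.71, 54.6 and 48.1 CPM in wild type and 22.6, 45.1, 76.6, 25.6 and 60.2 in *Setd1a*+/-. The P70 wild-type replicate 3 value lay within the P7 range.

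**Figure D1:**
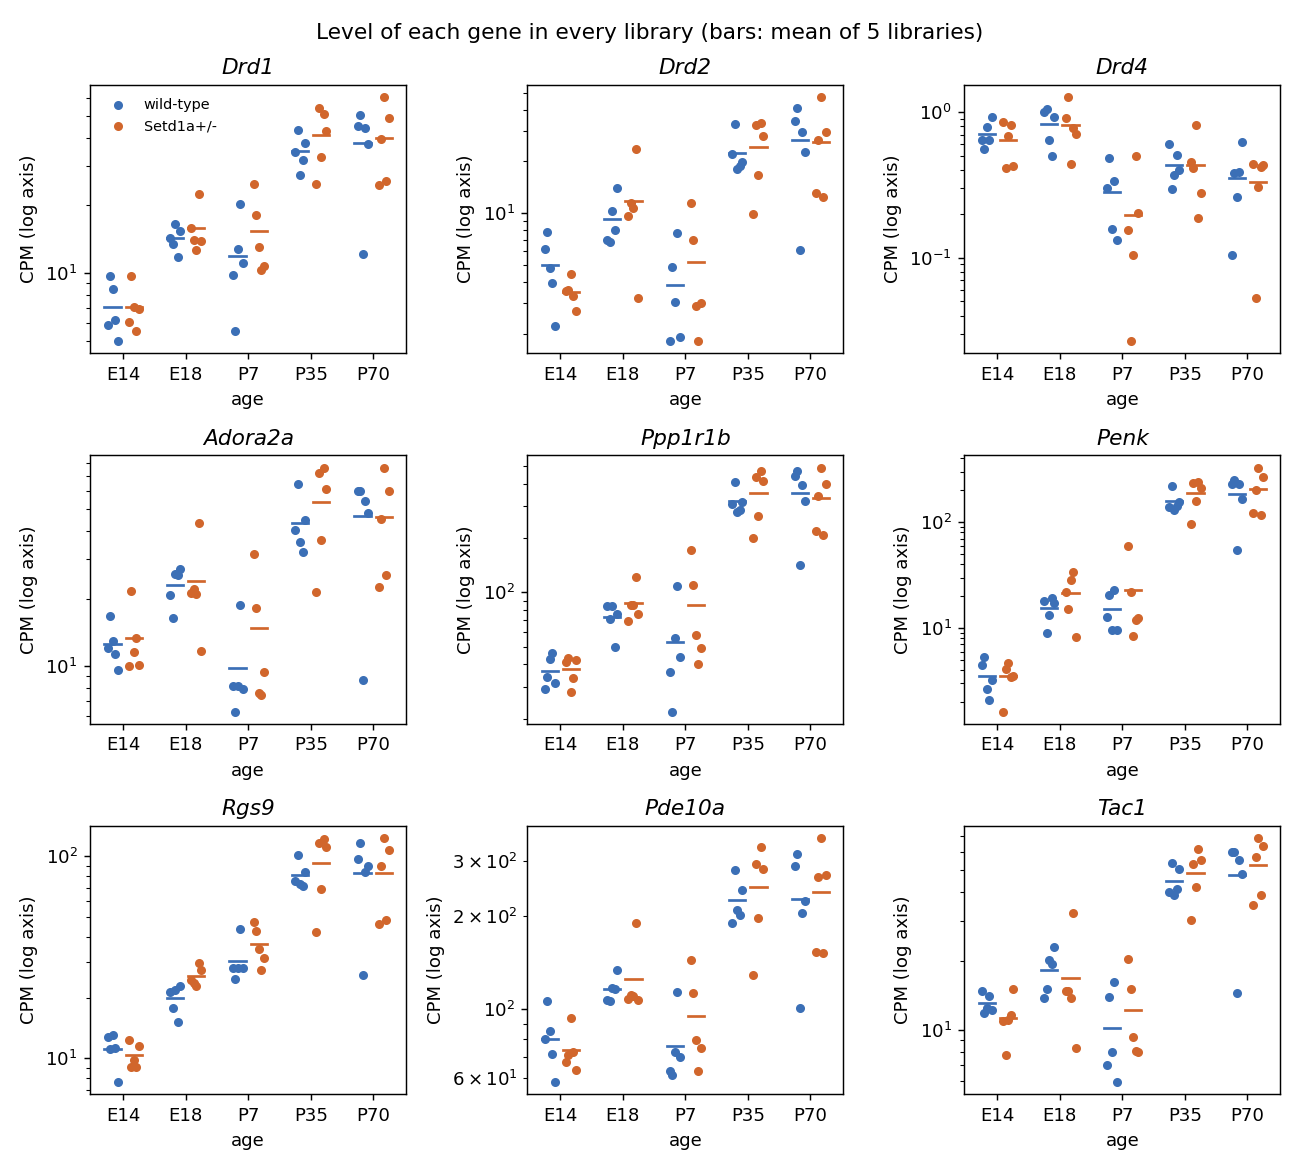
Level of each of the 9 genes in the 50 libraries, as CPM on a log axis, by age and genotype; each point is a library and each bar the mean of 5. The 8 genes other than Drd4 are highest at P35 and P70, with P70 wild-type replicate 3 far below its group.

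Of the peptide precursors, *Penk* (ENSMUSG00000045573, chr4:4133531-4138819, minus strand) gives the enkephalins, and it rose more with age than any other member. At E14, *Penk* was at 4.48, 5.33, 2.66, 2.08 and 3.26 CPM in wild type and 1.63, 4.12, 4.73, 3.44 and 3.54 in *Setd1a*+/-. Its E18 levels were 18, 8.99, 13.3, 19.3 and 17.1 CPM in wild type and 21.7, 15.3, 28.5, 34.2 and 8.32 in *Setd1a*+/-. No E18 library was as low as the highest E14 library. At P7, *Penk* was at 12.8, 20.6, 9.62, 23.1 and 9.58 CPM in wild type and 59.2, 21.8, 8.51, 11.9 and 12.5 in *Setd1a*+/-. At P35, *Penk* was at 140, 221, 129, 143 and 155 CPM in wild type and 95.6, 234, 240 and 210 in *Setd1a*+/- replicates 1, 2, 4 and 5, with replicate 3 just above wild-type replicate 5. *Setd1a*+/- replicate 1 was the highest P7 library and the lowest P35 library, and these ages did not overlap. At P70, *Penk* was at 231, 249, 55.1, 228 and 165 CPM in wild type and 122, 199, 327, 117 and 266 in *Setd1a*+/-. The lowest P70 library, wild-type replicate 3, was below *Setd1a*+/- replicate 1 of P7. Of the exonic bases of *Penk*, 14.26% are shared with *A830012C17Rik*, and counting did not use strand, so some reads cannot be told apart between these genes.

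*Tac1* (ENSMUSG00000061762, chr6:7554879-7565834, plus strand) gives substance P and neurokinin A. At E14, *Tac1* was at 14.7, 11.8, 12.5, 14.1 and 12.2 CPM in wild type and 10.9, 7.78, 11, 11.6 and 15 in *Setd1a*+/-. Its E18 levels were 13.8, 15.1, 20.1, 19.3 and 23.1 CPM in wild type and 14.8, 14.8, 13.8, 32.4 and 8.32 in *Setd1a*+/-. E14 and E18 overlapped in both genotypes, and E18 *Setd1a*+/- replicate 4 was apart from the rest. At P7, *Tac1* was at 7.01, 13.9, 7.97, 16.1 and 5.91 CPM in wild type and 20.4, 15.1, 9.27, 8.09 and 8.03 in *Setd1a*+/-. At P35, *Tac1* was at 40, 53.7, 38.9, 41.3 and 50.4 CPM in wild type and 30.3, 52.8, 42.2, 61.3 and 54.9 in *Setd1a*+/-. Every P35 library exceeded every P7 library. At P70, *Tac1* was at 59.6, 59.5, 14.4, 55.4 and 47.7 CPM in wild type and 34.9, 56.9, 68.7, 38.8 and 63.7 in *Setd1a*+/-, with wild-type replicate 3 inside the P7 range.

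Among the signaling genes, *Ppp1r1b* (ENSMUSG00000061718, chr11:98348404-98357796, plus strand) encodes a phosphatase inhibitor switched on by cyclic AMP signaling. At E14, *Ppp1r1b* was at 29.2, 33.9, 42.8, 46.4 and 31.6 CPM in wild type and 41, 43.5, 28.2, 33.4 and 42.4 in *Setd1a*+/-. Its E18 levels were 84, 71, 84.2, 49.7 and 75.8 CPM in wild type and 69.5, 84.8, 85, 122 and 75.7 in *Setd1a*+/-. Each E18 library exceeded each E14 library. At P7, *Ppp1r1b* was at 36.4, 21.9, 55.7, 109 and 44.1 CPM in wild type and 171, 110, 58.2, 40.1 and 48.9 in *Setd1a*+/-. At P35, *Ppp1r1b* was at 309, 409, 280, 286 and 318 CPM in wild type and 200, 437, 263, 468 and 412 in *Setd1a*+/-. P7 spread over the widest range for its mean, from wild-type replicate 2 up to *Setd1a*+/- replicate 1, but did not reach the P35 libraries. At P70, *Ppp1r1b* was at 439, 469, 142, 393 and 321 CPM in wild type and 219, 342, 490, 207 and 398 in *Setd1a*+/-, with the same lowest and highest library as *Drd1*, *Drd2* and *Adora2a*. *Ppp1r1b* shares 15.71% of its exonic bases with *1700003D09Rik*, and reads there cannot be told apart without strand.

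*Rgs9* (ENSMUSG00000020599, chr11:109225355-109298129, minus strand) encodes a protein that ends G protein signaling. From the youngest to the oldest age its means were 10.8 ± 1.78, 22.7 ± 4.21, 33.6 ± 8.11, 86.5 ± 25.4 and 82.7 ± 32.3 CPM (SD, n = 10 each). At E18, *Rgs9* was at 21.4, 17.7, 21.9, 15.2 and 22.8 CPM in wild type and 24.4, 23.7, 22.9, 29.8 and 27.4 in *Setd1a*+/-. All 5 *Setd1a*+/- libraries exceeded all 5 wild-type libraries there, though the change at E18 did not pass the test (log2 fold change 0.41, SE 0.27, adjusted p = 0.5853, edgeR quasi-likelihood test). *Pde10a* (ENSMUSG00000023868, chr17:8525372-8986648, plus strand) encodes a phosphodiesterase that breaks down cyclic nucleotides. In the same order of ages its means were 77.1 ± 14.4, 121 ± 25.6, 85.7 ± 28.1, 236 ± 61.5 and 233 ± 80.8 CPM (SD, n = 10 each). E18 *Setd1a*+/- replicate 4 held 190 CPM of *Pde10a* where the other 4 *Setd1a*+/- libraries lay between 107 and 111. P70 wild-type replicate 3 had the lowest P70 level of both, 26 CPM of *Rgs9* and 101 of *Pde10a*.

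Levels per exonic length (RPKM, the CPM divided by the gene's exonic length in kilobases) put the genes in order. At E14 *Ppp1r1b* was highest at 12.7 ± 2.27 RPKM (SD, n = 10), followed by *Pde10a* at 6 ± 1.12, *Adora2a* at 4.22 ± 1.21 and *Tac1* at 3.57 ± 0.633. *Penk*, *Drd1*, *Rgs9* and *Drd2* then lay between 2.16 and 1.67 RPKM, each less than the larger of their SDs from the next, and *Drd4* at 0.2 ± 0.0518. By P35 *Ppp1r1b* at 116 ± 30 RPKM and *Penk* at 106 ± 30.6 led, which did not differ beyond their spread. *Pde10a* at 18.4 ± 4.78 RPKM, *Adora2a* at 15.9 ± 6.13, *Tac1* at 13.7 ± 2.78, *Rgs9* at 13.5 ± 3.98, *Drd1* at 10.5 ± 2.65 and *Drd2* at 9.14 ± 3.17 followed, each apart from the next by less than the larger of their SDs, though *Rgs9* lay above *Drd1* by more than the SD of *Drd1*. At P70 the leading pair was *Penk* at 120 ± 49.8 RPKM and *Ppp1r1b* at 117 ± 40.6, and *Drd4* was last in level, at 0.128 ± 0.0532 at P35 and 0.101 ± 0.0499 at P70.

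Changes between successive ages were tested with edgeR's quasi-likelihood test over 16330 genes that passed a filter on low counts, which all 9 members passed, with Benjamini-Hochberg adjustment over all of them and an adjusted p under 0.05 as the threshold. From E14 to E18, 8 of the 9 genes rose, where 36% of all genes rose and 73.4% changed. *Penk* rose most (log2 fold change 2.34, SE 0.32, edgeR adjusted p = 1.342e-08), in 10 of 10 E18 libraries above every E14 library. *Drd2* followed with 1.29, *Ppp1r1b* with 1.08, *Drd1* with 1.07, *Rgs9* with 1.04, *Adora2a* with 0.84, *Pde10a* with 0.63 and *Tac1* with 0.52, and *Drd4* did not pass (0.28, SE 0.28, edgeR adjusted p = 0.3754). *Tac1* was no longer called by limma (0.46, adjusted p = 0.1097), nor by edgeR without E18 *Setd1a*+/- replicate 4 (0.33, adjusted p = 0.1495), without E14 *Setd1a*+/- replicate 2 (0.46, adjusted p = 0.0573) or without E18 wild-type replicate 5 (0.46, adjusted p = 0.0593). In wild-type libraries alone 5 genes rose, where 64.2% of all genes changed in either direction. Of the 8 that rose with all libraries, *Drd2* (0.82, edgeR adjusted p = 0.0889), *Pde10a* (0.47, 0.0715) and *Tac1* (0.43, 0.184) did not pass there. In *Setd1a*+/- libraries alone, where 66.3% of all genes changed, *Adora2a* (0.87, edgeR adjusted p = 0.0766) and *Tac1* (0.60, 0.0847) did not pass.

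From E18 to P7 the genes parted: 6 of 9 changed, where 76.1% of all genes did. *Rgs9* rose (log2 fold change 0.62, SE 0.19, edgeR adjusted p = 0.002761), among 37.9% of all genes that rose. *Drd4* fell by 1.75 on the log2 scale (SE 0.31, edgeR adjusted p = 2.438e-06), *Drd2* by 1.17 (SE 0.33), *Adora2a* by 0.90 (SE 0.29), *Tac1* by 0.61 (SE 0.22) and *Pde10a* by 0.45 (SE 0.18), among 38.2% of all genes that fell. E18 and P7 libraries overlapped for each of them. Log2 fold changes of *Ppp1r1b* (-0.18), *Drd1* (-0.09) and *Penk* (0.08) did not pass, and that of *Penk* was -0.05 by limma and -0.29 without P7 *Setd1a*+/- replicate 1. Without E18 *Setd1a*+/- replicate 4, *Tac1* (-0.42, edgeR adjusted p = 0.0598) and *Pde10a* (-0.36, 0.0666) were no longer called. Without P7 wild-type replicate 2, 6 of 9 genes changed, and in the fits with 1 library left out between 12278 and 12557 of all genes changed. In wild-type libraries alone 6 genes changed, where 65.5% of all genes did. In *Setd1a*+/- libraries alone, an alternative chosen after seeing the data, 2 genes changed, where 69.7% of all genes did: *Drd4* (-2.0, edgeR adjusted p = 0.0009875) and *Drd2* (-1.12, 0.0404), while *Rgs9* (0.56, 0.0558), *Adora2a* (-0.64, 0.182), *Tac1* (-0.42, 0.220) and *Pde10a* (-0.35, 0.225) did not pass.

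Between P7 and P35 all 9 genes rose, where 38% of all genes rose and 76.1% changed. *Penk* rose by a log2 fold change of 3.30 (SE 0.30, edgeR adjusted p = 1.192e-13), *Drd2* by 2.46 (SE 0.34), *Ppp1r1b* by 2.40 (SE 0.24), *Tac1* by 2.15 (SE 0.22), *Adora2a* by 2.08 (SE 0.29), *Drd1* by 1.56 (SE 0.21), *Pde10a* by 1.55 (SE 0.18), *Rgs9* by 1.45 (SE 0.19) and *Drd4* by 0.95 (SE 0.32, edgeR adjusted p = 0.007366). P35 libraries were above all P7 libraries for *Drd1*, *Ppp1r1b*, *Penk* and *Tac1*, and overlapped with them for the other 5. All 9 were called with any single library left out, in fits where between 12304 and 12547 of all genes changed. *Drd4* alone was lost in wild-type libraries (0.72, edgeR adjusted p = 0.0878), where 65.5% of all genes changed in either direction. In *Setd1a*+/- libraries alone 9 rose, where 70% of all genes changed in either direction. From P35 to P70 edgeR called 0 of 9 genes, against 9.74% of all genes (5% rose and 4.74% fell), with log2 fold changes from -0.33 for *Drd4* to 0.19 for *Penk*. Several of these values were near 0 and changed sign with single libraries: without P70 wild-type replicate 3 those of *Adora2a* (-0.06), *Rgs9* (-0.05) and *Pde10a* (-0.01) turned to 0.08, 0.06 and 0.09. No member had an unadjusted p under 0.05 at that step, and limma and DESeq2 also called 0. In single genotypes edgeR called 0 members there too, with 0 at an unadjusted p under 0.05, against 0.237% of all genes in wild-type and 4.87% in *Setd1a*+/- libraries. Fewer cells of a type and less RNA per cell cannot be told apart in any of these comparisons, since the libraries are of bulk tissue.

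**Figure D2:**
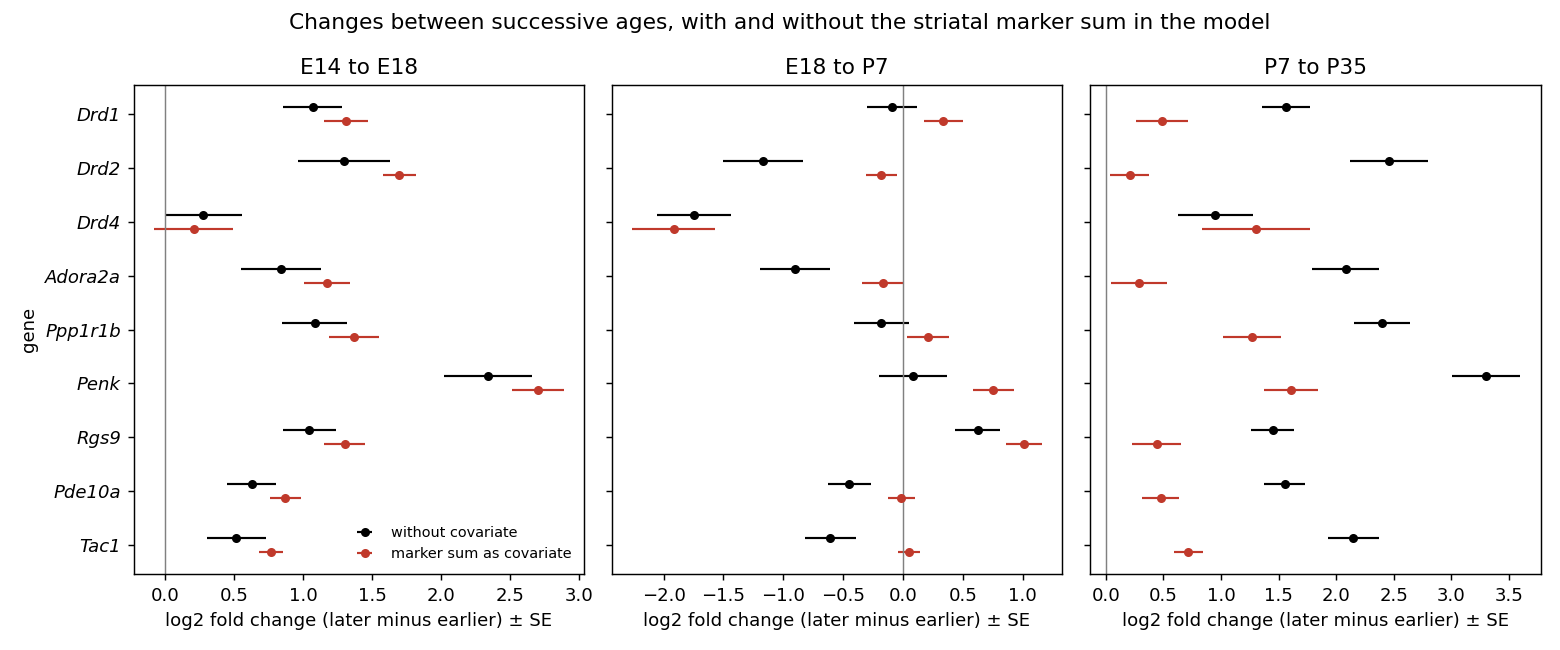
Log2 fold change of each gene (± SE, edgeR) for the steps from E14 to E18, E18 to P7 and P7 to P35, without and with the summed striatal markers as a covariate. With the covariate Drd2 moves from 2.46 to 0.21 and Penk from 3.30 to 1.61 for the step from P7 to P35.

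Genotype was tested with age as a factor, and edgeR called 0 of the 9 genes, where 4.43% of all genes (111 higher and 612 lower) were called. Log2 fold changes of *Setd1a*+/- against wild type ran from -0.12 (*Drd4*) to 0.32 (*Penk*, SE 0.18, edgeR adjusted p = 0.4255), with a median of 0.16 against 0.00 over all genes. No member had an unadjusted p under 0.05, and limma and DESeq2 called 0. The fold changes of *Tac1* (0.05) and *Drd2* (0.08) turned slightly negative, to at lowest -0.01, without E18 *Setd1a*+/- replicate 4 and without P7 *Setd1a*+/- replicate 1. The interaction of genotype and age was called for 0 members and 0% of genes by edgeR (1098 genes and 0 members at an unadjusted p under 0.05; DESeq2 called 21 genes and 0 members).

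Within single ages edgeR called 0 of 9 genes at E14 (0.129% of all genes), E18 (0.11%), P7 (0.735%), P35 (0%) and P70 (0.233%), and limma and DESeq2 called 0 members at each. At P7 alone a member had an unadjusted p under 0.05: *Ppp1r1b* (log2 fold change 0.70, SE 0.33, unadjusted p = 0.0408, edgeR adjusted p = 0.518). Its *Setd1a*+/- replicates 1 and 2 and wild-type replicate 4 were high and the other 7 libraries overlapped. Medians of the members' log2 fold changes were, in the order of the ages, -0.14, 0.18, 0.39, 0.15 and 0.01. Counts over all genes moved with single libraries, while the members' count was 0 with any 1 library left out. At P7, 7 genes were called in place of 120 without wild-type replicate 2, and 30, 51, 35, 44 and 62 without *Setd1a*+/- replicates 1 to 5 in turn. The count was over 1.5 times as high without wild-type replicate 5, and higher still without wild-type replicate 3. At E14, 741 genes were called in place of 21 without wild-type replicate 5 and 1 without wild-type replicate 1. At E18 the extremes were 150 in place of 18 without E14 *Setd1a*+/- replicate 2 and 7 without E18 *Setd1a*+/- replicate 2, and at P70 they were 92 in place of 38 without *Setd1a*+/- replicate 5 and 8 without *Setd1a*+/- replicate 4.

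**Figure D3:**
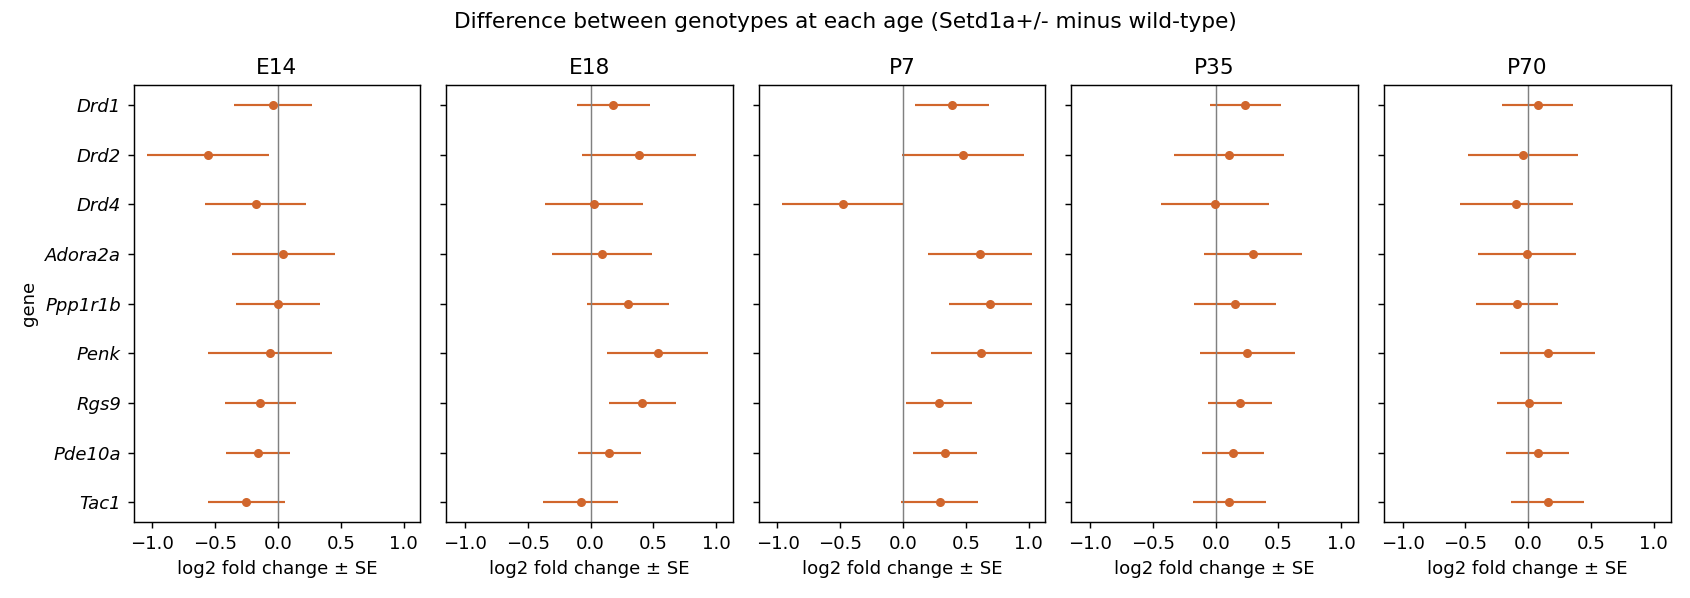
Log2 fold change of Setd1a+/- against wild type (± SE, edgeR) for each gene at each of the 5 ages. None passed an adjusted p of 0.05, and the median over the 9 genes was 0.39 at P7 and 0.01 at P70.

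Libraries of the same age and genotype differed more in these genes than in most others. The residual SD of log2 CPM within groups ran from 0.42 for *Pde10a* to 0.79 for *Drd2*, where the median tested gene had 0.155. At P70 *Adora2a* had an SD of 0.991, above 99.3% of tested genes. From E18 on, the 8 genes other than *Drd4* shared some of the extreme libraries. E18 *Setd1a*+/- replicate 4 and P7 *Setd1a*+/- replicate 1 were each the highest library of their age for 8 of 8, P35 *Setd1a*+/- replicate 1 and P70 wild-type replicate 3 were the lowest for 8 of 8, and P70 *Setd1a*+/- replicate 3 was the highest for 8 of 8. P35 *Setd1a*+/- replicate 4 was the highest for 7 of 8. Among the 3 highest for 8 of 8 were P7 *Setd1a*+/- replicate 2 and wild-type replicate 4, and among the 3 lowest for 8 of 8 were P70 *Setd1a*+/- replicates 1 and 4. Other ends were shared by fewer genes. At E14 no library was the highest for more than 3 of 8, while wild-type replicate 5 was the lowest for 5, and at E18 the lowest was *Setd1a*+/- replicate 5 for 4 genes, wild-type replicate 4 for 3 and wild-type replicate 2 for 1. P7 wild-type replicate 2 was the lowest for 5 genes and above the median of its age for the other 3. Relative to the median of the age, the median log2 level of the 8 genes was -1.87 in P70 wild-type replicate 3, -0.762 in P35 *Setd1a*+/- replicate 1, 0.869 in E18 *Setd1a*+/- replicate 4 and 1.47 in P7 *Setd1a*+/- replicate 1. Summed over the 9 genes, libraries reached at most 203 CPM at E14, and lay between 257 and 498 at E18, 160 and 510 for P7, 554 and 1387 for P35, and 366 and 1549 for P70.

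**Figure D4:**
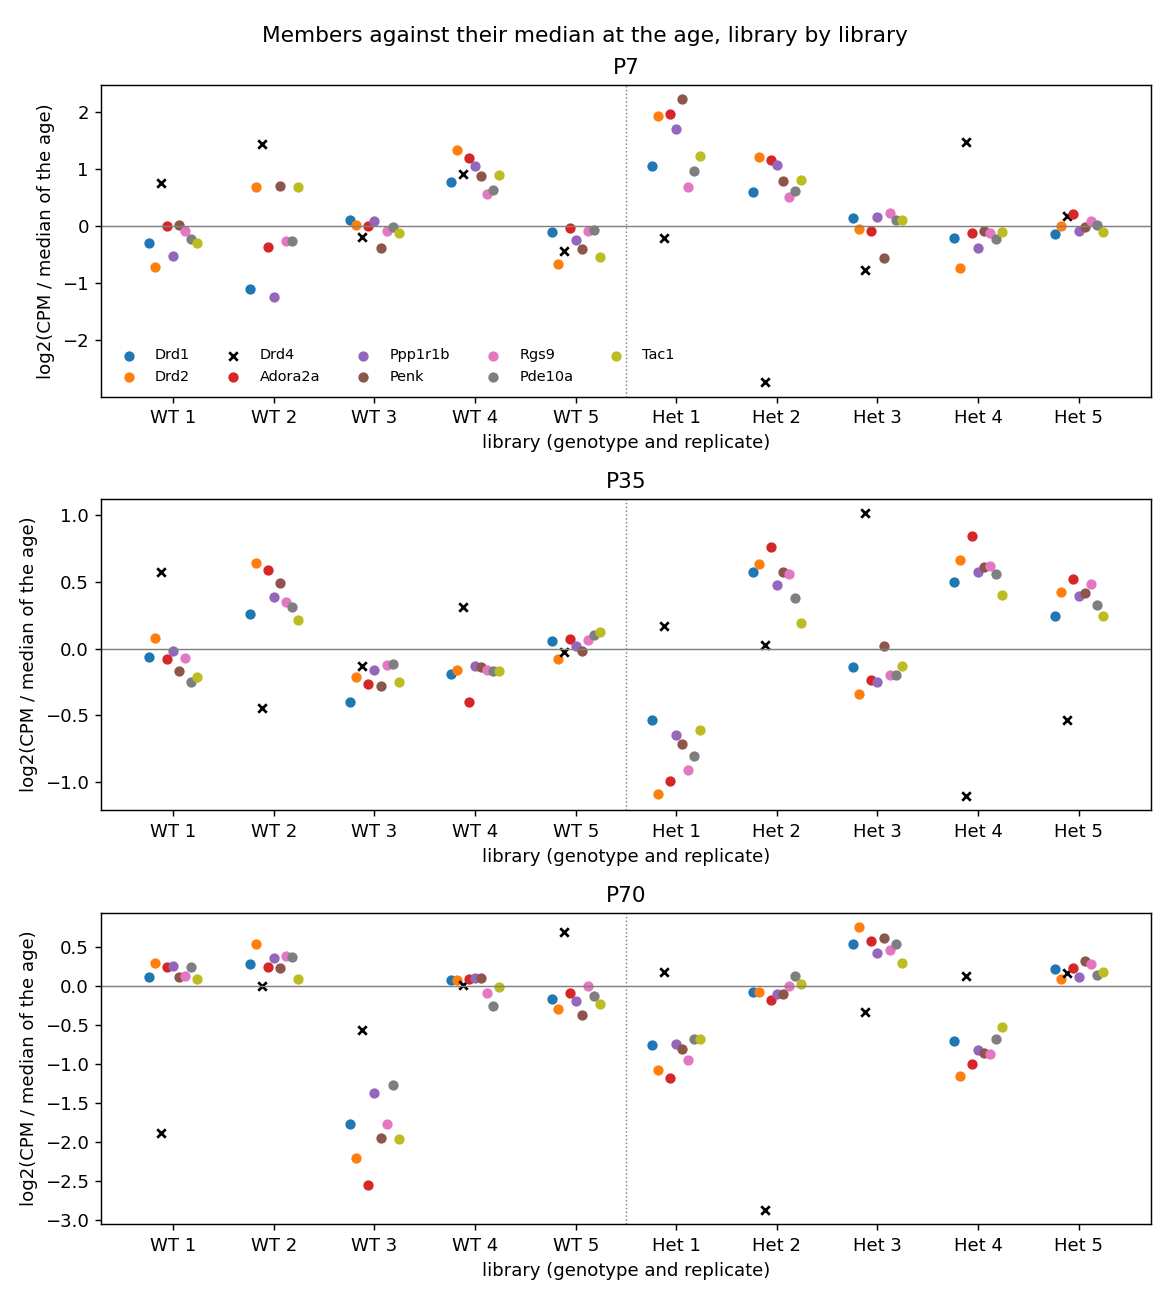
Log2 ratio of each gene's CPM to its median at the age, for the 10 libraries of P7, P35 and P70; each dot is a gene in a library and crosses mark Drd4. The median of the 8 other genes runs from -1.87 in P70 wild-type replicate 3 to 1.47 in P7 Setd1a+/- replicate 1, and in P7 wild-type replicate 2 the genes part, 5 of them lowest of the 10 libraries and 3 above the median.

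A list of striatal projection neuron markers that holds no member was summed in each library as a measure of striatal RNA: 11 of 12 listed genes were found and none was at 0 in any library. At E14 the sum was 390, 334, 304, 290 and 226 CPM in wild type and 255, 210, 249, 275 and 272 in *Setd1a*+/-, with *Zfp503* its most abundant gene (56.0 CPM). E18 sums were 155, 168, 243 and 345 CPM in wild-type replicates 1, 2, 3 and 5, with replicate 4 within this range, and 228, 232, 207, 484 and 87.3 in *Setd1a*+/-. The ends of the E18 range were the same *Setd1a*+/- replicates 4 and 5. At P7 the sum was 97.2, 147, 116, 186 and 100 CPM in wild type and 245, 180, 106, 93.4 and 99.5 in *Setd1a*+/-. P35 sums were 373, 539, 332, 346 and 404 CPM in wild type and 252, 541, 351, 575 and 480 in *Setd1a*+/-. At P70 the sum was 521, 589, 458 and 403 CPM in wild-type replicates 1, 2, 4 and 5 and 292, 459, 706, 285 and 485 in *Setd1a*+/-, with wild-type replicate 3 below them all. The lowest and highest libraries at P35 and P70 were those of the members' sum.

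No difference of the marker sum by genotype passed at any age in a two-sided exact permutation test of 5 against 5 libraries, adjusted over 5 tests. With all libraries, the mean difference of *Setd1a*+/- from wild type was largest at E14 (-56.6 CPM, exact p = 0.0952, adjusted p = 0.476). Without E14 wild-type replicate 5, a library with *Xist* counts, it was -77.4 CPM (exact p = 0.00794, adjusted p = 0.0397). The differences at E18 (24.2 CPM), P7 (15.7) and P70 (10.3) turned negative when a single library was left out: -34.9 without E18 *Setd1a*+/- replicate 4, -9.39 without P7 *Setd1a*+/- replicate 1, and -54.9 without P70 *Setd1a*+/- replicate 3 or -47.2 without P70 wild-type replicate 3. At P35 the difference was 41.1 CPM, but 88 without P35 *Setd1a*+/- replicate 1 and 76 without P35 wild-type replicate 2. At E14 it was -36.3 CPM without E14 wild-type replicate 1. Which age had the largest difference thus turned with single libraries.

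Within an age, members were compared with the marker sum on log2 scales over 10 libraries, in 45 relations with Benjamini-Hochberg adjustment over them and permutation tests of 100000 resamples. By Pearson's r 31 of 45 relations passed and by Spearman's rho 28. At P35 the r of the 8 genes other than *Drd4* lay between 0.963 and 0.992 (rho 0.867 to 0.988) and at P70 between 0.918 and 0.993 (rho 0.939 to 0.988), each with an adjusted permutation p of at most 0.000125 for r. Leaving out the 2 libraries farthest in the marker sum gave r from 0.926 to 0.983 at P35 and from 0.934 to 0.992 at P70. No relation of *Drd4* passed, with r from -0.622 to 0.115. With deviations from the genotype mean in place of levels, *Drd4* at P35 passed by rho (-0.745, adjusted permutation p = 0.0297) and not by r (-0.616, adjusted permutation p = 0.0787).

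At P7 the relation was uneven. *Drd2* (r = 0.976, rho = 0.952, permutation p = 1e-05, the smallest these resamples can give, adjusted p = 7.5e-05) and *Tac1* (r = 0.955, rho = 0.818, adjusted permutation p = 0.000405) kept r at 0.942 and 0.898 without *Setd1a*+/- replicate 1 and wild-type replicate 4, and *Penk* went from 0.914 to 0.793. For *Adora2a* r went from 0.843 to 0.528, for *Pde10a* from 0.828 to 0.523, for *Rgs9* from 0.73 to 0.356 and for *Ppp1r1b* from 0.711 to 0.3, so that with this sum they rest on those 2 libraries. With the most abundant marker left out of the sum, the 2 farthest libraries were *Setd1a*+/- replicate 1 and wild-type replicate 2. Without that pair r went from 0.708 to 0.97 for *Adora2a*, 0.683 to 0.962 for *Pde10a*, 0.575 to 0.925 for *Rgs9*, 0.529 to 0.96 for *Ppp1r1b* and 0.39 to 0.954 for *Drd1*. *Drd1* with the full sum did not pass by r (0.594, adjusted permutation p = 0.0921, and r = 0.0876 without *Setd1a*+/- replicate 1 and wild-type replicate 4) though it did by rho (0.721, adjusted permutation p = 0.0416). By rho 4 of 9 genes passed at P7, without *Rgs9* (0.685, adjusted permutation p = 0.0533), *Pde10a* (0.673, 0.0581), *Penk* (0.648, 0.0691) and *Adora2a* (0.6, 0.0986). The count by rho depended on the setting: with deviations from the genotype mean 8 of 9 passed at P7, these 4 among them, and without the most abundant marker 2 of 9. By r, 7 of 9 passed at P7, also with deviations, and 5 of 9 without that marker. At E18, *Drd2* (r = 0.98), *Adora2a* (0.96), *Tac1* (0.953), *Pde10a* (0.783) and *Penk* (0.716) passed, and r for *Penk* was 0.193 without *Setd1a*+/- replicates 4 and 5. By rho *Penk* did not pass at E18 (0.503, adjusted permutation p = 0.181) while *Drd1* did (0.709, 0.0449), though not with deviations (0.673, 0.059). At E14, *Tac1* (r = 0.75), *Drd2* (0.742) and *Rgs9* (0.731) passed, and r for *Tac1* was 0.415 without wild-type replicate 1 and *Setd1a*+/- replicate 2. Without the same pair, r for *Drd1* went from 0.103 to 0.81 and for *Adora2a* from 0.015 to 0.842. With deviations from the genotype mean, the 2 farthest E14 libraries were wild-type replicates 1 and 5, and r without them was -0.302 for *Drd1* and -0.447 for *Adora2a*. In that setting 2 of 9 genes passed by r at E14, *Drd2* (0.681) and *Rgs9* (0.742), and 0 by rho in place of 3. Both rest on those 2 libraries, with r of 0.171 and 0.322 without them, while *Tac1* did not pass (0.654, adjusted permutation p = 0.0621) and had 0.72 without them.

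**Figure D5:**
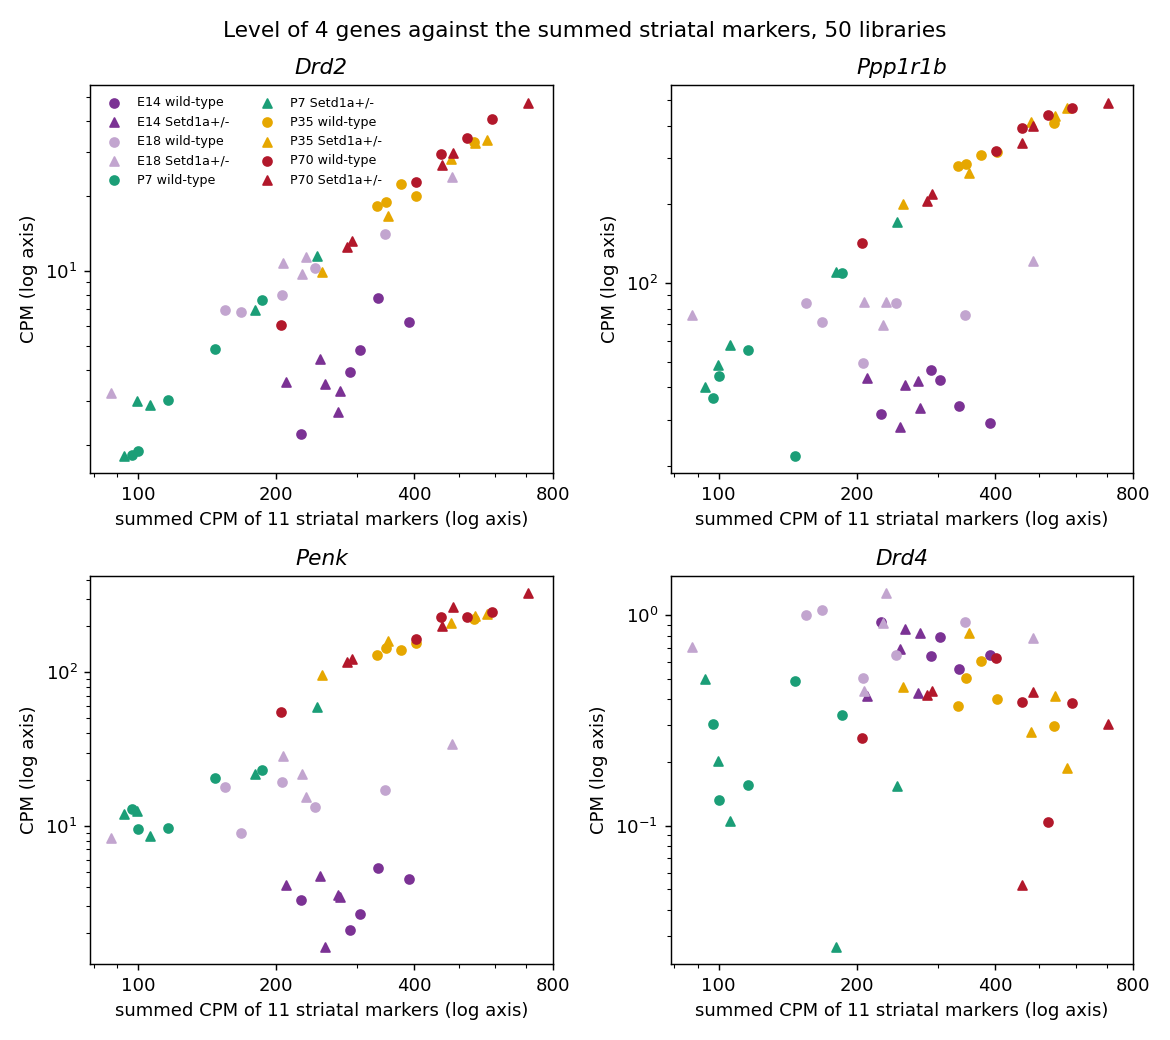
Level of Drd2, Ppp1r1b, Penk and Drd4 against the summed CPM of 11 striatal markers, both on log axes, for the 50 libraries colored by age. Within P35 and P70 the points of Drd2, Ppp1r1b and Penk lie along a line (r of at least 0.963), and those of Drd4 do not.

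At P35 and P70, glutamatergic markers of the cortex lay in the opposite order at the extremes. At P70 their sum was highest, 2288 CPM, in wild-type replicate 3, where the members were lowest, and lowest, 1810 CPM, in *Setd1a*+/- replicate 3, where the members were highest. At P35 it was highest in *Setd1a*+/- replicate 1 (2459 CPM) and lowest in *Setd1a*+/- replicate 4 (2010 CPM). At P7 their sum was lowest in wild-type replicate 2 (921 CPM), where the members' sum was lowest too (160 CPM). At E18 it was highest in *Setd1a*+/- replicate 5 (2369 CPM), where the striatal markers were lowest. It was lowest in wild-type replicate 4 (1296 CPM), followed by *Setd1a*+/- replicate 4 (1521 CPM), where the members were highest. At E14 it was lowest in wild-type replicate 1 (1373 CPM) and highest in *Setd1a*+/- replicate 2 (2007 CPM), the highest and the lowest library in striatal markers, but neither was at an end of the members' sum. The same libraries were also highest and lowest in interneuron markers (507 and 253 CPM) and in ganglionic eminence markers (1596 and 821 CPM). Interneuron marker sums followed the striatal markers only at some ends. The most abundant gene of that list was *Gad2* at E14 (149 CPM) and *Gad1* at the later ages (306 CPM at P35), genes of inhibitory neurons in general. Since most striatal neurons are inhibitory too, this sum does not tell cortical interneurons from striatal tissue. At E18 they were highest in *Setd1a*+/- replicate 4 (514 CPM) and lowest in replicate 5 (301 CPM). Their lowest libraries at P35 and P70 were *Setd1a*+/- replicate 1 (999 CPM) and wild-type replicate 3 (1030 CPM). At both ages wild-type replicate 4 was highest. At P7 wild-type replicate 2 was highest (527 CPM). P70 wild-type replicate 3 was also lowest in ganglionic eminence markers (99.6 CPM). Sums of 4 olfactory bulb markers also varied within ages. In order from E18 to P70, the highest library was 6, 8.17, 7.3 and 5.32 times the lowest. The striatal markers gave 5.55, 2.62, 2.28 and 3.44. At E14 these ratios were 1.66 and 1.86. Cholinergic and septal sums varied 11.4 times at E14 and 1.63 times at P35. Choroid plexus sums at E18 were 96.7 ± 120 CPM in wild type and 7.96 ± 3.5 in *Setd1a*+/- (SD, n = 5 each). The part of dissected striatal or other tissue in the members' spread was not tested beyond these values.

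With the marker sum of each library as a covariate, some age steps became smaller and others larger. Larger ones included *Drd4* from P7 to P35 (0.95 without the covariate) and from E18 to P7 (-1.75 without it). From E18 to P7 they also included *Rgs9* (0.62 without it) and *Penk* (0.08 without it). For the step from P7 to P35, 5 of 9 genes were called, where 65.9% of all genes were called with the same covariate: *Penk* (log2 fold change 1.61), *Drd4* (1.30), *Ppp1r1b* (1.27), *Tac1* (0.72) and *Pde10a* (0.48, edgeR adjusted p = 0.007991). *Drd1* (0.49, edgeR adjusted p = 0.0528), *Rgs9* (0.44, 0.0635), *Adora2a* (0.29, 0.295) and *Drd2* (0.21, 0.282) were not. From E18 to P7, 3 genes were called, against 73.8% of all genes: *Rgs9* (1.01, edgeR adjusted p = 1.013e-07) and *Penk* (0.76, 0.0001576) higher and *Drd4* lower (-1.91, 4.424e-06), while the 4 other falls were no longer called: *Adora2a* (-0.16), *Drd2* (-0.18), *Pde10a* (-0.01) and *Tac1* (0.05). *Ppp1r1b* (0.21) and *Drd1* (0.34) changed sign without passing. From E14 to E18, 8 genes were called with the covariate (72.9% of all genes) and from P35 to P70 edgeR called 0 (9.88% of all genes).

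The markers changed with age themselves, so their sum is no fixed measure of tissue between ages. From E14 to E18, 6 of 11 rose, among them *Gpr6* (log2 fold change 2.54), and 4 fell, among them *Six3* (-1.23). From E18 to P7, *Rasd2* (2.34) and *Syndig1l* (0.91) rose and 7 fell, *Isl1* by 4.35 and *Zfp503* by 2.42 on the log2 scale. From P7 to P35, 9 rose, among them *Rasd2* by 2.80, and from P35 to P70 edgeR called 0, with 0 at an unadjusted p under 0.05. Development and the amount of striatal tissue in the dissections cannot be told apart between ages, and all the more across birth, where the dissected region was described differently. Relative to the marker sum, the mean log2 ratio of *Penk* rose from -6.38 at E14 through -3.67, -3.04 and -1.29 to -1.23 at P70, while that of *Drd1* was -5.33, -3.86, -3.36, -3.46 and -3.54 at the same ages. Within P35 the log2 ratio of *Ppp1r1b* had an SD of 0.0633, against 0.389 for its log2 CPM, but it varied more than the log2 CPM at E14 (0.413 against 0.263) and E18 (0.598 against 0.322).

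Genes most like the members were named by Pearson's r of log2 CPM deviations from the group mean over 50 libraries, as a description. For *Drd1* they were *Gng7* (0.932), *Adora2a* (0.901) and *Ppp1r1b* (0.897), and for *Adora2a* *Gng7* (0.925), *Pde10a* (0.905) and *Drd1*. Genes close to *Drd2* included the striatal markers *Rarb* (0.907) and *Rxrg* (0.906), and *Tac1* was most like *Klhl13* (0.925), *Foxp2* (0.9) and *Isl1* (0.899). *Penk* came closest to *Drd2* (0.844), *Adora2a* (0.843) and *Isl1* (0.815), *Rgs9* to *Pde10a* (0.883), *Scube3* (0.862) and *Drd1* (0.852), and *Pde10a* to *Strn* (0.916), *Gng7* (0.915) and *Adora2a*. For *Ppp1r1b* they were *Drd1*, *Gng7* (0.854) and *Adora2a* (0.837). *Drd4* had lower values, with *Spata45* (0.624), *Tstd2* (0.584) and *Spats2* (0.567), and its r with the other members lay between -0.305 and -0.111.

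Other receptors, peptides and signaling genes were counted over the same steps, at which 36%, 37.9% and 38% of all tested genes rose and 37.4%, 38.2% and 38.1% fell. Differences between these lists and the members were not tested. Of 10 tested receptors for dopamine, adenosine, opioids and tachykinins, 7 rose from E14 to E18, and 9 rose and 0 fell from E18 to P7, among them the adenosine receptor *Adora1* (log2 fold change 1.54) and the opioid receptors *Oprk1* (2.73) and *Oprd1* (2.11). From P7 to P35, 7 rose, *Drd3* by 2.73 and *Drd5* by 1.64, and the tachykinin receptors *Tacr3* (-1.31) and *Tacr1* (-0.88) fell. Of 11 other neuropeptide precursors, 8 rose from E14 to E18, 8 rose and 2 fell to P7 (*Nts* -2.32, *Npy* -0.75), and 9 rose to P35, *Pdyn* by 1.59. Of 28 genes of G protein and cyclic AMP signaling, 23 rose and 4 fell, then 21 rose and 4 fell, then 14 rose and 9 fell over these steps, with *Adcy1* (2.02) among those that rose from E14 to E18. Of 9 genes for making, moving and breaking down dopamine, 7 rose and 1 fell, then 6 rose, then 3 rose and 3 fell, with the vesicular transporter *Slc18a2* falling by 1.49 at the earliest step and by 2.25 from P7 to P35. From P35 to P70, *Gnb5* (0.15, edgeR adjusted p = 0.0319) was the only gene of these 4 lists called.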

How the data were processed

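Frontal cortex RNA was captured by poly-A selection and sequenced as paired reads of 150 bases in 1 batch. According to the study's methods and the submitters' processing notes, the authors trimmed reads with Trimmomatic, checked them with FastQC and aligned them to GRCm38 with STAR; the versions are not given in the sources used here. The deposited count tables hold raw counts per gene from featureCounts 1.4.6-p2 against Ensembl release 102, without strand, and reads over several genes were counted for each.

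Groups came from the labels. Of 55487 genes, 55141 had a symbol in GENCODE vM21, and 16330 protein-coding genes passed edgeR's filterByExpr (minimum count 10). Counts were tested with edgeR 4.0.16 (TMM, quasi-likelihood, adjusted p under 0.05) in R 4.3.3, in place of the study's limma, with limma 3.58.1 and DESeq2 1.42.0 as alternatives. Log2 CPM used a prior count of 2. Sums, permutation tests and plots were made in Python 3.11.15 with numpy 2.4.6, scipy 1.17.1, pandas 2.3.3 and matplotlib 3.10.9. The test was checked on simulated data. No pair of replicates agreed within sampling noise. Genes named are the members, of each other list up to 3 called genes by adjusted p in each direction and the most abundant, and the 3 genes most like each member. Members and lists were chosen with earlier results of these data known, and the fits of heterozygous libraries alone were chosen after seeing the data. Some genes that this rule names are not reported here.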

Additional observations from a re-analysis of the deposited data

Results flagged for a closer look

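The 9 members and the summed striatal markers were each looked at in 10 groups of 5 libraries. In 11 of these 100 cases, each of a member, a single CPM value stood apart from the other 4 by Dixon's test. Chance gives about 1 in 20 for separate groups, but these cases share their libraries: P7 wild-type replicate 4 stood apart for 3 genes, and P35 wild-type replicate 2, E18 *Setd1a*+/- replicate 4 and P70 wild-type replicate 3 for 2 each. For *Drd2* it was P35 wild-type replicate 2 at 32.9 (others 18.2 to 22.2). For *Adora2a* it was E14 *Setd1a*+/- replicate 2 at 21.6 (others 10 to 13.3), P7 wild-type replicate 4 at 18.7 (6.28 to 8.15) and P70 wild-type replicate 3 at 8.71 (48.1 to 60.5). For *Penk* it was P7 *Setd1a*+/- replicate 1 at 59.2 (8.51 to 21.8) and P35 wild-type replicate 2 at 221 (129 to 155). For *Rgs9* it was P7 wild-type replicate 4 at 43.7 (24.8 to 28.1). For *Pde10a* it was E18 *Setd1a*+/- replicate 4 at 190 (107 to 111) and P7 wild-type replicate 4 at 114 (61.5 to 72.8). For *Tac1* it was E18 *Setd1a*+/- replicate 4 at 32.4 (8.32 to 14.8) and P70 wild-type replicate 3 at 14.4 (47.7 to 59.6).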

How the results depend on the processing

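The count of members called by genotype was 0 across ages, at each age and for the interaction under every alternative run (limma, DESeq2, DESeq2 size factors, library size alone, other filters, RNA integrity or the marker sum as a covariate, the replicate block, and single libraries or the 2 *Xist* libraries left out). The counts for the age steps moved by over 1.5 times in 4 settings: to 5 from E14 to E18 in wild-type libraries, to 3 from E18 to P7 and 5 from P7 to P35 with the marker sum as a covariate, and to 2 from E18 to P7 in heterozygous libraries. The fits of a single genotype hold fewer samples, and for the others the cause was not tested. With libraries left out singly, the count of ages with a called marker sum difference ranged from 0 to 1. *Drd4* is not tested under a filter of 10 CPM in 5 libraries, and its low counts limit what could be detected.

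Changes of sign included these. For genotype across ages, *Tac1* was -0.014 without E18 *Setd1a*+/- replicate 4 and up to 0.082 without another library, and *Drd2* was -0.012 without P7 *Setd1a*+/- replicate 1 and up to 0.13. From E18 to P7, *Penk* was -0.053 by limma, and -0.29 without P7 *Setd1a*+/- replicate 1 to 0.19 without E18 *Setd1a*+/- replicate 4. *Tac1* was 0.051 with the marker sum as a covariate, *Ppp1r1b* 0.21 and *Drd1* 0.34, and in heterozygous libraries *Ppp1r1b* was 0.019 and *Drd1* 0.013. The summed marker difference ranged, with libraries left out singly, from -77.4 to -36.3 CPM at E14, -34.9 to 64.3 at E18, -9.39 to 29.8 at P7, 7.3 to 88 at P35 and -54.9 to 50.5 at P70 (-47.2 without P70 wild-type replicate 3), and was -0.224 at P70 without the most abundant marker. Of 45 relations with the marker sum, 31 passed, and 29 or 30 under the alternatives by r (28, and 26 or 29, by rho), and counts within E14 and P7 moved more.

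With the replicate number as a block, members called were 0 for genotype and 8, 6, 9 and 0 for the age steps. The fit without the block gave the same counts, and there 73.4%, 76.1%, 76.1% and 9.74% of all genes changed at these steps. Shares of all genes for the age steps with the block are not given here, so these counts are not read as a result about the members. The numbers showed no clear pairing of the samples: 9 of 25 same-numbered pairs correlated above 0.1 (median r 0.0644, -0.207 to 0.46) and in 7 of 25 the best match had the same number. These values cannot exclude a pairing. The study's methods mention littermates at postnatal ages, and the labels do not say which libraries share a litter.

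Counts over all genes moved more. By genotype they went from 21 to 114 (DESeq2), 3 (library size), 9 (filter of 10 CPM) and 795 (without the *Xist* libraries) at E14, from 18 to 10 (limma), 111 (DESeq2), 1 (RNA integrity) and 37 (block) at E18, from 120 to 16 (limma), 68 (filter of 10 CPM) and 20 (block) at P7, from 0 to 11 (DESeq2) at P35 and from 38 to 78 (DESeq2) at P70. Leaving out single libraries gave 1 to 741 at E14, 7 to 150 at E18, from 7 at P7 up to over 1.5 times the 120 called (without P7 wild-type replicates 3 or 5), 0 to 5 at P35 and 8 to 92 at P70, and 647 to 774 across ages. From P35 to P70, 1591 genes became 38 in wild-type and 783 in heterozygous libraries.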

Other observations

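Markers of other tissues and cell types were counted over the age steps from E14 to P35, at which 36%, 37.9% and 38% of all tested genes rose and 37.4%, 38.2% and 38.1% fell. Of 11 ganglionic eminence markers, 10 fell from E14 to E18, 11 fell from E18 to P7, and 2 rose and 7 fell from P7 to P35. Of 8 cortical glutamatergic markers, 2 rose and 3 fell, then 1 rose and 5 fell, then 2 rose and 4 fell over these steps. Of 9 cortical interneuron markers, 7 rose and 1 fell, then 4 rose and 2 fell, then 9 rose.

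At P7, 3 marker genes were called lower in *Setd1a*+/-: *Pvalb* of the interneuron list (log2 fold change -4.49, edgeR adjusted p = 0.006091), *Ttr* of the choroid plexus list (-9.28, edgeR adjusted p = 0.0435) and *Tcf7l2* of the thalamus list (-1.78, edgeR adjusted p = 0.0190). Without P7 wild-type replicate 2 they were at -0.43, 0.23 and -0.13, each with an edgeR adjusted p of 1. With each of the 50 libraries left out in turn, *Pvalb* was called in 49 fits, *Tcf7l2* in 46 and *Ttr* in 35.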
